A study of Sus scrofa with 4 samples.

Results

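The cells described here are the blood vessel endothelium of the pig endometrium on days 12 and 9 of pregnancy. They were chosen by their RNA: a cell was taken when the UMIs (RNA molecules counted once by their barcode) of PECAM1, VWF, CDH5, KDR, EGFL7, EMCN, CLDN5, PLVAP, ESAM and ENG summed to 5 or more and, on the per-million scale of that cell, to 1000 or more. A cell with a UMI of PROX1, the transcription factor of lymphatic endothelium, was left out, as was a cell in which the epithelial genes KRT7, KRT8, KRT18, EPCAM and CLDN4 reached 4000 on that scale. The rule was met by 783 of 8962 cells on day 12 and by 164 of 7984 cells on day 9, 947 of 16946 endometrial cells in all and of 33562 cells in the whole series.

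Endothelial cells line all blood vessels and control what passes from blood to tissue. They sense flow, recruit leukocytes through adhesion molecules and chemokines, and differ between arteries, veins and capillaries. Around implantation the pig endometrium becomes more vascular and receives hormones, cytokines and interferons from the elongating conceptus, while the pig placenta stays outside the maternal epithelium, so that exchange runs through intact maternal vessels.

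The study collected embryos and endometrium of Sus scrofa on days 12 and 9 of pregnancy, 1 library for each of the 4 groups. The 2 endometrial libraries are used here: endometrium of day 12 and endometrium of day 9. Both tissues were digested with type II and type IV collagenase, dispase and DNase, strained, treated with a lysis buffer for red blood cells and loaded on a Chromium controller with a 3' version 3 kit, per the labels' protocols. How many animals gave the tissue, their breed and age and whether tissue was pooled are not given in the sources used here. With 1 library per group no difference has a replicate check and none was tested, and a difference between days cannot be told apart from a difference between 2 animals, 2 pieces of tissue or 2 preparations. Intervals are at 95% and cover counting error only. They are exact, except for that of the difference in shares, which is approximate. Levels are CPM, the UMIs of a gene summed over the endothelial cells of a library on a per-million scale.

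The endothelial cells held 4255069 UMIs on day 12 and 1183629 UMIs on day 9, with medians of 3235 and 5888 UMIs and 1401 and 2193 genes per cell. All other kept cells had medians of 2197 and 2620 UMIs. A median of 2.52% of the UMIs of an endothelial cell was mitochondrial on day 12 and 1.45% on day 9. Just outside the threshold, 53 and 27 cells had 4 summed marker UMIs, and just inside it 35 and 13 cells had 5, of which 33 and 7 met the rest of the rule. A further 15 and 9 cells met the marker rule but had PROX1 UMIs, and the epithelial limit removed 0 cells. No barcode was shared between the endothelial cells of both days. Of the day 12 endothelial barcodes, 13 were also kept in the day 9 library, and all 783 and 164 endothelial barcodes stand in the deposited barcode list of the day 9 embryo. The deposited list of the day 12 embryo held 17 and 0 of them. Whether the day 9 embryo list was filtered for cells is not known here, so the full match is given as a count only.

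Endothelial cells made up 8.74% (8.16 to 9.34%) of the cells of day 12 and 2.05% (1.75 to 2.39%) of the cells of day 9, a difference of 6.68 percentage points (6.02 to 7.36). The share rests on the marker rule itself. With cells of 2000 UMIs or more alone it was 10.7% on day 12 and 2.45% on day 9. Without PLVAP among the marker genes it was 7.78% on day 12 and 1.93% on day 9. A share among dissociated cells also depends on which cells the digestion released, and the part of that step was not tested.

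The 10 genes of the rule are given as a description. PLVAP, which forms the diaphragms of fenestrae and caveolae, was at 2428 CPM on day 12 and at 657 CPM on day 9, the widest gap between days among them. PECAM1, a junctional adhesion molecule, was at 660.4 CPM on day 12 and at 371 CPM on day 9, and the VE-cadherin gene CDH5 at 269.6 and 152 CPM. KDR, the main VEGF receptor, was at 181 CPM on day 12 and at 136 CPM on day 9. VWF, which tethers platelets, was at 272 CPM on day 12 and at 209.5 CPM on day 9. The sialomucin EMCN ran the other way, at 488 CPM on day 12 and at 675 CPM on day 9. The remaining 4 (EGFL7, ESAM, ENG and CLDN5) lay between 245 and 678 CPM on day 12 and between 158 and 479 CPM on day 9.

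Endothelial genes outside the rule were high in the same cells. Of 15 endothelial markers that were not used to choose the cells, 15 on day 12 and 14 on day 9 were at least 2-fold above all other cells of the same library, and 12 and 11 were at least 10-fold above. ERG, an ETS transcription factor that maintains endothelial identity, was at 142 CPM on day 12 and at 123 CPM on day 9, against 2.22 and 1.13 CPM in all other cells. CD34, a surface sialomucin of endothelial and blood stem cells, was at 476 CPM on day 12 and at 333 CPM on day 9, against 13.2 and 4.58 CPM in all other cells. TEK, the angiopoietin receptor, was at 162 CPM on day 12 and at 174 CPM on day 9, against 6.46 and 3.46 CPM in all other cells. The exception on day 9 was the transcription factor SOX18. It was at 84.1 CPM on day 12 and at 80.3 CPM on day 9 in endothelial cells, against 5.85 and 46.1 CPM in all other cells, so that its gap was 14.4-fold on day 12 and 1.74-fold on day 9. SOX17, its relative, was also higher outside endothelium on day 9, at 24.6 and 87.2 CPM on days 12 and 9.

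**Figure D1:**
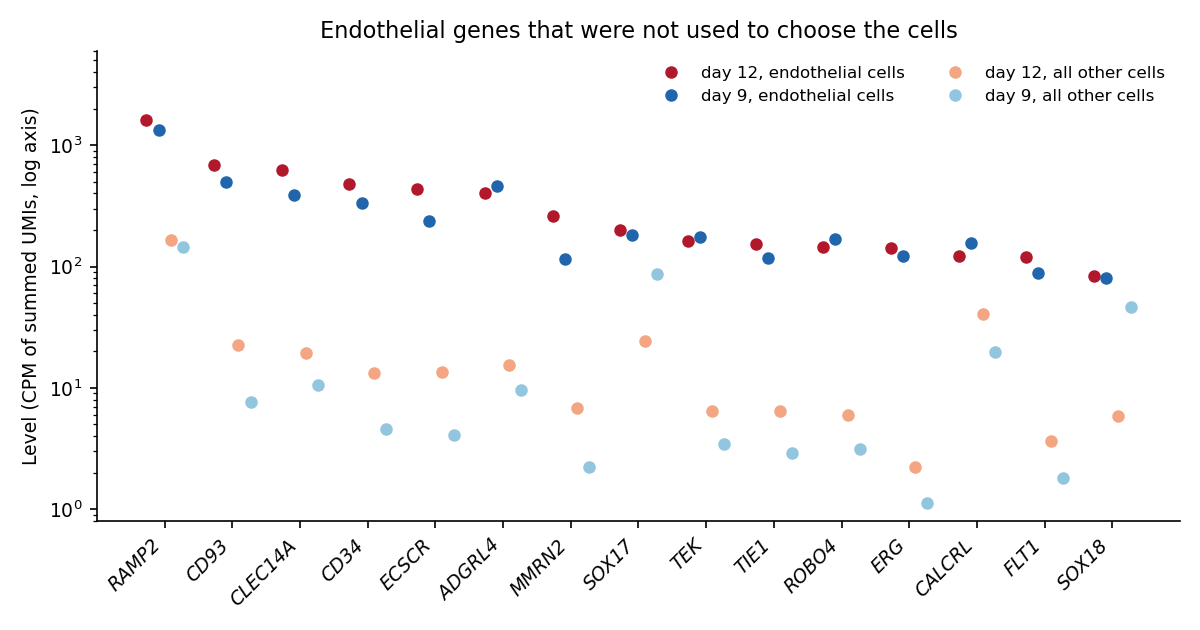
Level of 15 endothelial genes outside the rule, in CPM on a log axis, in endothelial cells and in all other cells of the day 12 and day 9 libraries. Each point is 1 library. The endothelial points lie above the points of all other cells of the same day for every gene shown, least for SOX18 on day 9.

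Across the 5466 features with a mean level of 20 CPM or more over both days (mitochondrial, ribosomal protein, haemoglobin and rule genes left out), 640, or 11.7%, were at least 2-fold higher in endothelial cells than in all other cells on both days. Of 41 endothelial genes outside the rule past that filter, which include the 15 markers above, 37 were among them. The 15 genes with the largest excess over other cells mixed well known endothelial genes with less familiar ones. ERG was 64.2-fold and 109-fold above all other cells on days 12 and 9, the membrane protein MYCT1 46.8-fold and 80.6-fold and the apelin receptor APLNR 40.6-fold and 85.3-fold. CAVIN2, a coat protein of caveolae, was 35.9-fold and 89.4-fold above. ESM1, a secreted proteoglycan of sprouting endothelium, was 41.96-fold and 61.8-fold above. With them ranked PLIN5, a lipid droplet protein, at 50.1 CPM on day 12 and at 49.8 CPM on day 9, against 0.849 and 0.482 CPM in all other cells. SYT7, a calcium sensor of exocytosis, was at 48.4 CPM on day 12 and at 55.8 CPM on day 9, against 0.849 and 0.683 CPM in all other cells. CD34, MMRN2, CYYR1, TM4SF18, TDRD10, ASS1 and 2 features without a name complete the 15.

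ASS1, which makes the arginine precursor argininosuccinate, was at 166 CPM on day 12 and at 53.2 CPM on day 9 in endothelial cells, against 4.29 and 0.964 CPM in all other cells. Both endothelial values lie far above both values of the other cells, and the day 12 value was 3.12-fold higher (2.41 to 4.11) than that of day 9. Arginine is the substrate of nitric oxide synthase. Its endothelial form NOS3 was at 60.4 CPM on day 12 and at 55.8 CPM on day 9, against 1.46 and 0.763 CPM in all other cells.

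Lymphatic genes were low, and none of the 9 matched genes of that list passed the filter, a mean of 20 CPM over both days. Of these, FLT4 was at 11.05 CPM on day 12 and at 15.2 CPM on day 9 in endothelial cells. In all other cells FLT4 was at 0.896 and 0.603 CPM, so it was higher in endothelial cells on both days. PROX1 and NTS had no UMI in endothelial cells, PROX1 by the rule. LYVE1, the hyaluronan receptor of lymphatic endothelium, was at 3.53 CPM on day 12 and at 11.8 CPM on day 9. The lymphatic chemokine CCL21 was at 2.82 CPM on day 12 and at 4.22 CPM on day 9, and podoplanin (PDPN) at 0.940 and 1.69 CPM. MMRN1, which lymphatic endothelium also makes, was at 2.35 CPM on day 12 and at 22.8 CPM on day 9 in endothelial cells, against 0.990 and 10.9 CPM in all other cells.

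Endothelial cells of each library were clustered alone, without the rule genes, to describe how they varied. The clusters were built from the values listed for them, so those values are a description. On day 12 there were venous-like and tip-like clusters and no arterial-like or capillary-like one. Cluster 5 (224 cells), venous-like, held ACKR1, the chemokine-binding receptor of venules, at 318 CPM. The adhesion molecule ICAM1, which is not in the venous list, was at 529 CPM in it. Of 12 detected venous genes, 4 had their highest level of day 12 there. Others did not, such as NR2F2, at 114 CPM there and at 426 CPM in cluster 2. Clusters 4 (99 cells) and 6 (203 cells) were tip-like, by genes of sprouting vessels. They held ESM1 at 245 and 391 CPM, the potassium channel subunit KCNE3 at 77.1 and 99.3 CPM and the collagen IV chain COL4A1 at 2183 and 2585 CPM. They also had the highest sums of the capillary list on day 12, at 3407 and 3047 CPM. Cluster 4 held the highest level of 4 tip cell genes and of 3 capillary genes, with the capillary gene RGCC among its leading genes. Cluster 6 had a median of 1747 UMIs per cell, and ESM1 was found in 28.1% and KCNE3 in 15.8% of its cells. Cluster 3 (87 cells) stayed unnamed: CDC20, UBE2C and PBK led it, and 5 of its 10 leading genes were among the 14 mitosis genes used below, against 1 arterial gene, GJA5. Of the 17 arterial genes, 9 had their highest level of day 12 in it, which met the marker rule for an arterial name, and the name was left off after its leading genes were seen. It held the arterial connexin GJA5 at 149 CPM, the guidance ligand SEMA3G at 228 CPM and the Notch target HEY1 at 195 CPM. GJA5 had no UMI in clusters 4, 5, 6 and 8 of that day.

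On day 9, cluster 3 (37 cells) was venous-like, with ACKR1 at 368 CPM and ICAM1 at 466 CPM. It held the highest level of that day of 4 of 11 detected venous genes. PLAT, another venous gene, was at 504 CPM in it and at 635 CPM in cluster 2. Cluster 2 (70 cells) was tip-like, with ESM1 at 143 CPM, ANGPT2 at 89.8 CPM and the apelin gene APLN at 53.1 CPM. It held the highest level of that day of 12 of 22 detected tip cell genes and of 5 of 10 detected capillary genes. The capillary gene MFSD2A was among its leading genes. No day 9 cluster was arterial-like, and GJA5 was at 18.7 CPM or less in each of them. Cluster sizes are not compared between days, since the genes that define them differed between days too. Where only 1 library gave a cluster, a trait of that library and a kind of vessel cell cannot be told apart.

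**Figure D2:**
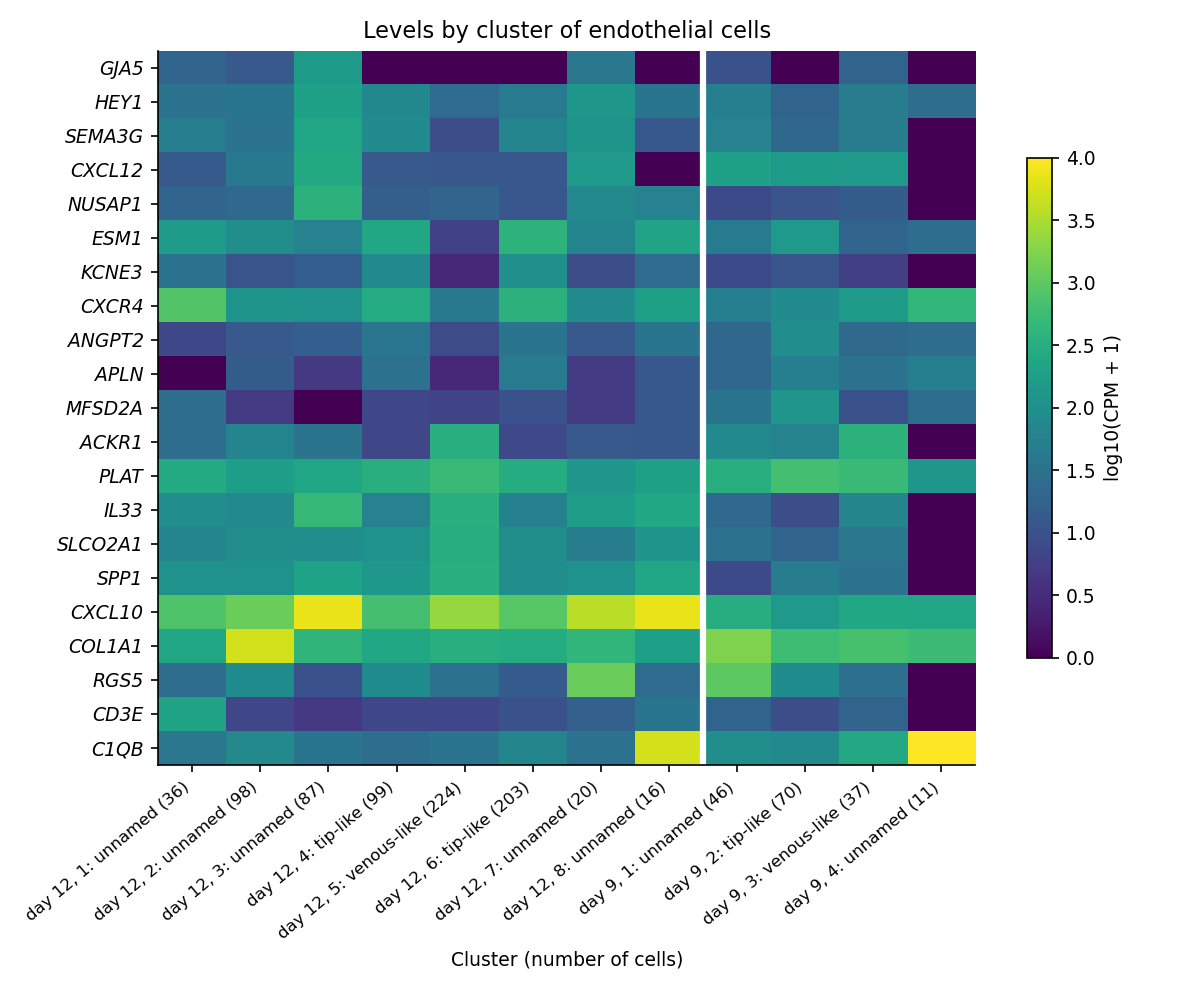
Level of 21 genes, as log10(CPM + 1), in the 8 clusters of day 12 and the 4 clusters of day 9 endothelial cells, with the number of cells in brackets. ACKR1 is high in the venous-like cluster of each day and GJA5 and NUSAP1 in cluster 3 of day 12, and COL1A1, RGS5, CD3E and C1QB mark other clusters that stayed unnamed.

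Some of the chosen cells carried markers of a second cell class, and the clusters they formed stayed unnamed. On day 12, cluster 1 (36 cells) was led by the T and NK cell genes GNLY and CD3E, with CD3E at 204 CPM. Cluster 2 (98 cells) was led by stromal genes, with the collagen COL1A1 at 5303 CPM. Clusters 7 (20 cells) and 8 (16 cells) were led by smooth muscle and pericyte genes and by macrophage genes, with RGS5 at 1217 CPM in cluster 7 and the complement gene C1QB at 5576 CPM in cluster 8. On day 9, cluster 1 (46 cells) was led by pericyte genes (RGS5 989 CPM) and cluster 4 (11 cells) by macrophage genes (C1QB 13366 CPM). Whether their cells are doublets, a doublet being 2 cells in a droplet, was not tested. Without these 6 clusters, 613 endothelial cells remained on day 12 and 107 on day 9, or 6.84% and 1.34% of all cells. Below, values without them are given for part of the results that they move by over 1.5 times. The same holds where they end a call or turn a direction. A result given without such values may still change when these clusters are left out.

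Summed over the marker lists, genes of other cell classes were lower in endothelial cells than in all other cells, with the red cell and platelet list on day 9 as the exception. The 12 stromal markers summed to 5764 CPM on day 12 and to 5073 CPM on day 9 in endothelial cells, against 42511 and 33195 CPM in all other cells. The 12 smooth muscle and pericyte markers summed to 332 CPM on day 12 and to 905 CPM on day 9 in endothelial cells, against 936 and 1378 CPM in all other cells. All 7 of them that passed the filter were lower on day 12. The 12 matched macrophage and monocyte markers summed to 415 CPM on day 12 and to 1301 CPM on day 9 in endothelial cells, against 2086 and 2162 CPM in all other cells. Again all 7 that passed the filter were lower on day 12, with LYZ at 0 on both days and S100A8 at 0 on day 9. Pericyte and macrophage RNA was thus lower in the day 12 cells, and its part in the genes that were lower on day 12 was not tested. The T and NK cell, B and plasma cell, common leukocyte, epithelial, and red cell and platelet lists summed to 51.5 to 567 CPM on day 12 and to 63.4 to 681 CPM on day 9. Of the B cell markers, MS4A1 was at 0 on both days and PAX5 on day 9, and of the red cell and platelet markers, AHSP, ALAS2 and TUBB1 were at 0 on both days.

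Between days, 159 of the 5466 features, or 2.91%, were at least 2-fold higher on day 12 in endothelial cells, and 223, or 4.08%, were at least 2-fold lower. The median log2 ratio of all 5466 was -0.08 in endothelial cells and -0.05 in all other cells. In all other cells, 93 of the 159 and 64 of the 223 passed 2-fold in the same direction. How many of all 5466 features did so there was not counted, so these 2 counts are a description. By level, 65 of the 159 were at least 2-fold above all other cells on day 12, and 49 of the 223 on day 9. Of all 5466 features, 834 were so on day 12 and 871 on day 9. Without the 6 clusters, 183 of 5292 features (3.46%) were higher and 240 (4.54%) lower, and 115 and 144 of the genes above were among them.

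**Figure D3:**
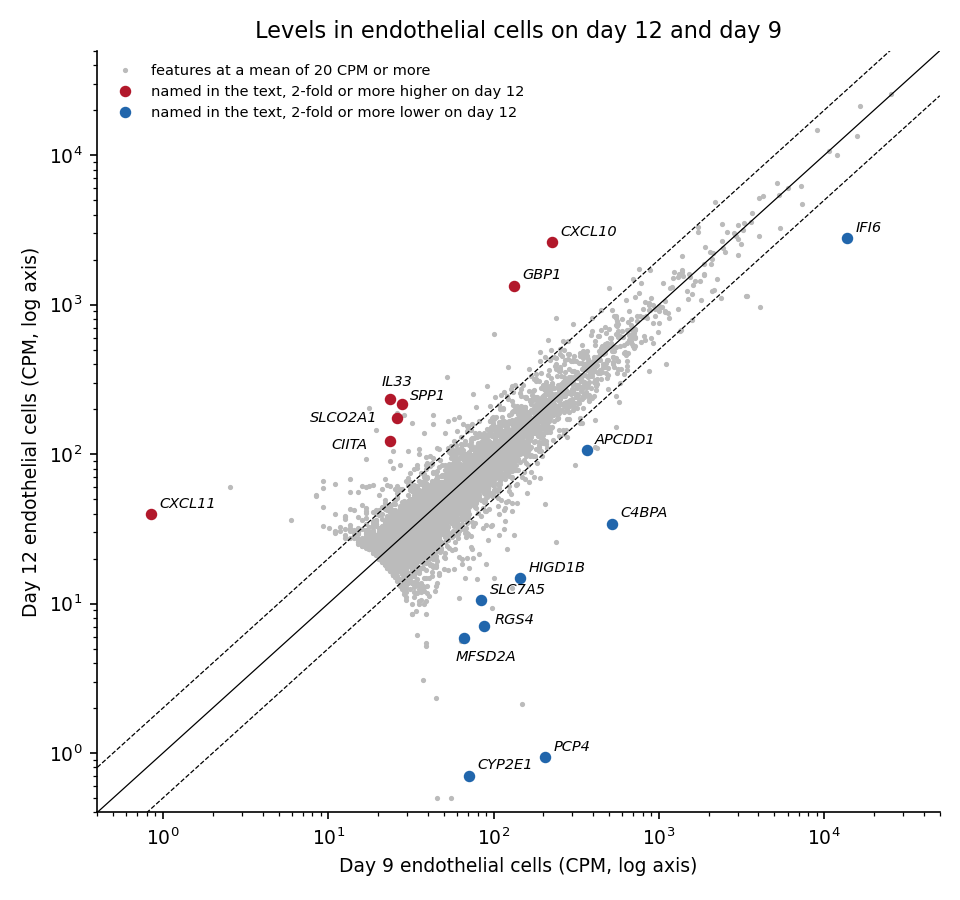
Level of 5466 features in endothelial cells of day 12 (vertical) against day 9 (horizontal), in CPM on log axes, each point the sum over 1 library. Levels under 0.5 CPM are drawn at 0.5, the full line marks equal levels and the broken lines a 2-fold difference. IL33, SPP1, SLCO2A1 and CIITA lie far above the line, and CYP2E1 and PCP4 far below it.

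Of the genes that were higher on day 12 and at least 2-fold above all other cells, IL33 (ENSSSCG00000005203) was among those with the highest lower bounds of the ratio. IL33 is an alarmin of the interleukin 1 family that endothelial cells store in the nucleus. It had 997 and 28 UMIs on days 12 and 9, or 234 and 23.7 CPM, against 5.19 and 0.362 CPM in all other cells. Its level was thus 9.90-fold higher (6.81 to 14.98) on day 12. With each cell thinned to 1000 UMIs, so that depth is equal, 13.8% (11.5 to 16.4%) of endothelial cells on day 12 and 3.05% (0.997 to 6.97%) on day 9 had an IL33 UMI, against 0.550% and 0.0256% of all other cells. Without thinning, the shares of endothelial cells were 35.4% and 12.2%. Within day 12, IL33 was at 462 CPM in cluster 3 and 350.5 CPM in the venous-like cluster, against 57.4 and 56.4 CPM in the tip-like clusters.

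SLCO2A1 (ENSSSCG00000011641) carries prostaglandins across the cell membrane, and prostaglandins act on luteal function and uterine blood flow in early pig pregnancy. It was at 175 CPM on day 12 and at 26.2 CPM on day 9, against 4.43 and 0.643 CPM in all other cells. Its endothelial level was 6.69-fold higher (4.67 to 9.91) on day 12. In thinned cells, 11.4% (9.23 to 13.8%) of endothelial cells had a SLCO2A1 UMI on day 12 and 3.05% (0.997 to 6.97%) on day 9. The venous-like cluster of day 12 held it at 312 CPM and cluster 3 and the tip-like clusters at 90.2 to 109 CPM.

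SPP1, which encodes the secreted integrin ligand osteopontin, was at 215 CPM on day 12 and at 27.9 CPM on day 9 in endothelial cells, against 18.7 and 3.94 CPM in all other cells. Its endothelial level was 7.72-fold higher (5.46 to 11.3) on day 12. A SPP1 UMI was found in 14.4% (12.04 to 17.1%) of thinned endothelial cells on day 12 and in 1.22% (0.148 to 4.34%) on day 9. CFI, the plasma protease that inactivates complement C3b, was at 183 CPM on day 12 and at 43.1 CPM on day 9 in endothelial cells, against 88.8 and 10.4 CPM in all other cells. ESD, an esterase, was at 383 CPM on day 12 and at 122 CPM on day 9. SPP1, CFI and ESD also passed 2-fold without the 6 clusters. Of the features with no name in the sources used here, ENSSSCG00000030801 was at 633 CPM on day 12 and at 101 CPM on day 9 and ENSSSCG00000025631 at 59.5 and 9.29 CPM.

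**Figure D4:**
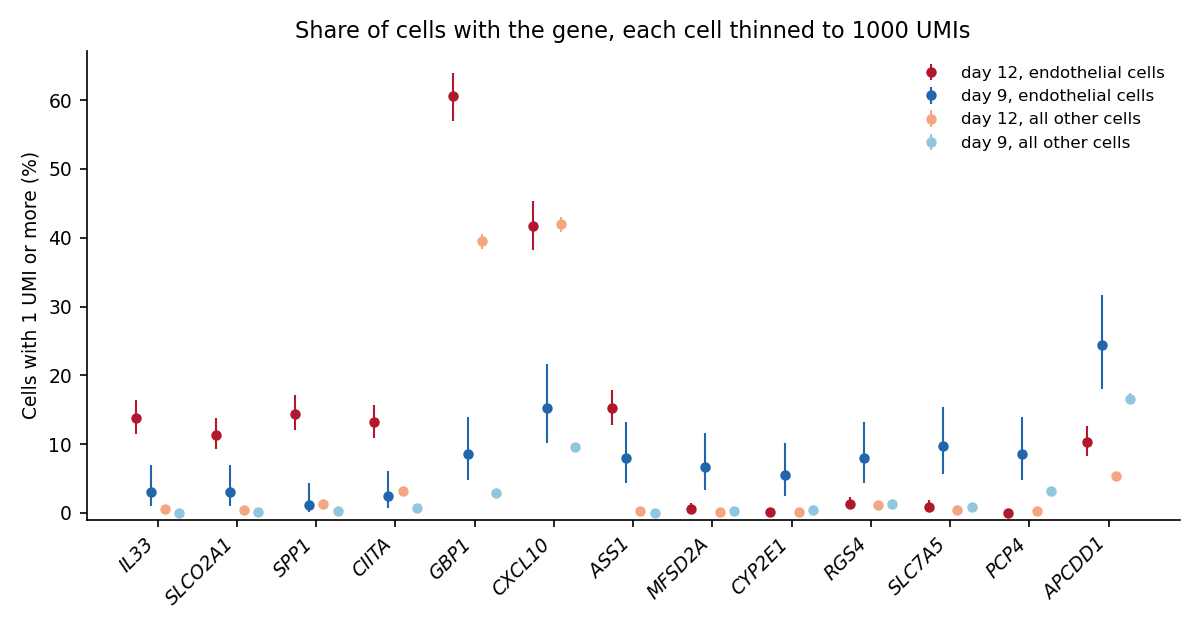
Share of cells with 1 UMI or more of a gene, in %, with every cell thinned to 1000 UMIs, in endothelial cells and in all other cells of days 12 and 9; bars are exact 95% binomial intervals (counting error only). On day 12, IL33, SLCO2A1, SPP1 and ASS1 were found in a larger share of endothelial cells than of all other cells, while CXCL10 was found in like shares of both.

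DKK1, a secreted inhibitor of WNT signalling, was higher on day 12 in both compartments. It was at 202 CPM on day 12 and at 17.7 CPM on day 9 in endothelial cells, against 1276 and 120.2 CPM in all other cells. The endothelial level was below that of the rest on both days. Much of it lay in the stromal-led cluster 2 of day 12, at 1216 CPM, and without the 6 clusters it was at 71.4 and 17.03 CPM on days 12 and 9.

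Among the genes lower on day 12, several had their highest level in the tip-like cluster of day 9. MFSD2A (ENSSSCG00000003669), which carries lipids such as docosahexaenoic acid across the endothelium of the blood-brain barrier, was at 5.88 CPM on day 12 and at 65.9 CPM on day 9, against 1.84 and 3.58 CPM in all other cells. It was 11.2-fold lower (7.07 to 18.4) on day 12, with 5.21 and 88.01 CPM on days 12 and 9 without the 6 clusters. Cluster 2 of day 9 held it at 122 CPM, cluster 3 of day 9 at 9.33 CPM and clusters 3 to 6 of day 12 at 0 to 9.03 CPM. In thinned cells, 0.639% (0.208 to 1.48%) on day 12 and 6.71% (3.40 to 11.7%) on day 9 had a MFSD2A UMI, against 0.171% and 0.358% of all other cells.

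CYP2E1 (ENSSSCG00000010780), a cytochrome P450 that oxidises ethanol and small solvents, had 3 and 84 UMIs on days 12 and 9, or 0.705 and 70.97 CPM. It was 101-fold lower (33.3 to 498) on day 12, with 0.00654 (0.000776 to 0.0246) as the ratio without the 6 clusters. RGS4, a brake on G protein signalling, was at 7.05 CPM on day 12 and at 87.9 CPM on day 9. The serine protease inhibitor SPINK6 was at 9.40 CPM on day 12 and at 97.2 CPM on day 9. In the tip-like cluster of day 9 these 3 genes were at 129, 169 and 169 CPM, above every other cluster of either day. SLC7A5, a carrier of large neutral amino acids, was at 10.6 CPM on day 12 and at 84.5 CPM on day 9. SLC7A1, a carrier of arginine and lysine, was at 21.4 CPM on day 12 and at 81.1 CPM on day 9. The orphan receptor gene GPR160 was at 5.64 CPM on day 12 and at 63.4 CPM on day 9. Each of these 6 genes was at least 2-fold above all other cells on day 9, and at least 2-fold lower on day 12 also without the 6 clusters.

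APCDD1, an inhibitor of WNT signalling at the cell surface, was at 106 CPM on day 12 and at 367 CPM on day 9 in endothelial cells, against 54.5 and 179 CPM in all other cells. It was 3.46-fold lower (3.03 to 3.96) on day 12 in endothelial cells and lower in the rest of the tissue as well. CMTM3, a membrane protein, was at 28.7 CPM on day 12 and at 107 CPM on day 9, against 11.9 and 26.4 CPM in all other cells. The unnamed feature ENSSSCG00000032436 was at 1143 CPM on day 12 and at 3382 CPM on day 9.

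Other genes lower on day 12 had their highest level of day 9 in a cluster led by other-class markers. PCP4, a calmodulin-binding protein, was at 0.940 CPM on day 12 and at 205 CPM on day 9 over all endothelial cells, but at 533 CPM in the pericyte-led cluster of day 9 and at 16.3 and 0 CPM in the named clusters of that day. Without the 6 clusters it was at 0.306 and 11.4 CPM on days 12 and 9. HIGD1B was at 14.8 CPM on day 12 and at 145 CPM on day 9 over all endothelial cells and at 4.59 and 12.8 CPM without them. C4BPA, the alpha chain of the complement C4b-binding protein, was at 34.3 CPM on day 12 and at 522 CPM on day 9 over all cells and at 9.19 and 70.97 CPM without the 6 clusters. The macrophage-led cluster of day 9 held it at 14122 CPM, and its ratio without the clusters was 0.129 (0.0795 to 0.208). PRELP, a matrix proteoglycan, was at 2.35 CPM on day 12 and at 44.8 CPM on day 9 in endothelial cells, against 10.4 and 194 CPM in all other cells. PRELP was at 0.919 and 19.9 CPM without the 6 clusters. All 4 genes were thus still lower on day 12 without those clusters, with PCP4, HIGD1B and PRELP below the filter of 20 CPM there.

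Interferon gamma and type I interferons bind different receptors and induce overlapping sets of genes. Of 34 interferon response genes past the filter, 8 were at least 2-fold higher on day 12 in endothelial cells (against 2.91% of all features) and 1 was at least 2-fold lower (against 4.08%). In all, 14 had a ratio above 1 and 20 below 1, and the median log2 ratio was -0.25 in endothelial cells and 0.28 in all other cells. GBP1, a GTPase typical of the interferon gamma response, was at 1339.8 CPM on day 12 and at 133 CPM on day 9, against 731 and 23.5 CPM in all other cells. It was 10.1-fold higher (8.62 to 11.9) on day 12 in endothelial cells, and 60.5% (57.01 to 63.98%) of thinned endothelial cells on day 12 and 8.54% (4.75 to 13.9%) on day 9 had a GBP1 UMI. Its relative GBP2 was at 161 CPM on day 12 and at 32.1 CPM on day 9. WARS1, the tryptophanyl-tRNA synthetase, was at 188 CPM on day 12 and at 26.2 CPM on day 9, with a ratio of 11.6 (6.57 to 22.5) without the 6 clusters. SOCS1, a feedback inhibitor of cytokine signalling, was at 159 CPM on day 12 and at 43.1 CPM on day 9. IFIT2, ISG20 and STAT2 were also among the 8, with ratios of 2.31 to 5.08.

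Other genes of the list, several best known from the type I response, are given by their levels. IFIT1, of the same family as IFIT2, was at 349 CPM on day 12 and at 387 CPM on day 9 in endothelial cells, against 312 and 109 CPM in all other cells. IFI6, a mitochondrial protein, was at 2775 CPM on day 12 and at 13826 CPM on day 9, against 3819 and 9605 CPM in all other cells. It was 4.98-fold lower (4.87 to 5.10) on day 12 in endothelial cells and passed 2-fold in the rest of the tissue as well. The ubiquitin-like modifier ISG15 was at 2133 CPM on day 12 and at 3005 CPM on day 9, the antiviral GTPase MX1 at 145 and 275 CPM and the tethering factor BST2 at 556 and 917 CPM, and these stayed short of 2-fold. MX1 was at 138 and 281 CPM without the 6 clusters, at least 2-fold lower on day 12. RSAD2 (viperin), an antiviral enzyme, was at 106 CPM on day 12 and at 193 CPM on day 9, against 10.1 and 14.5 CPM in all other cells. The 8 genes that were at least 2-fold higher in endothelial cells were at least 2-fold higher in all other cells too. Among clusters, IFI6 was at 17547 CPM in the tip-like and 8844 CPM in the venous-like cluster of day 9, and at 1859 to 4032 CPM in clusters 3 to 6 of day 12.

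**Figure D5:**
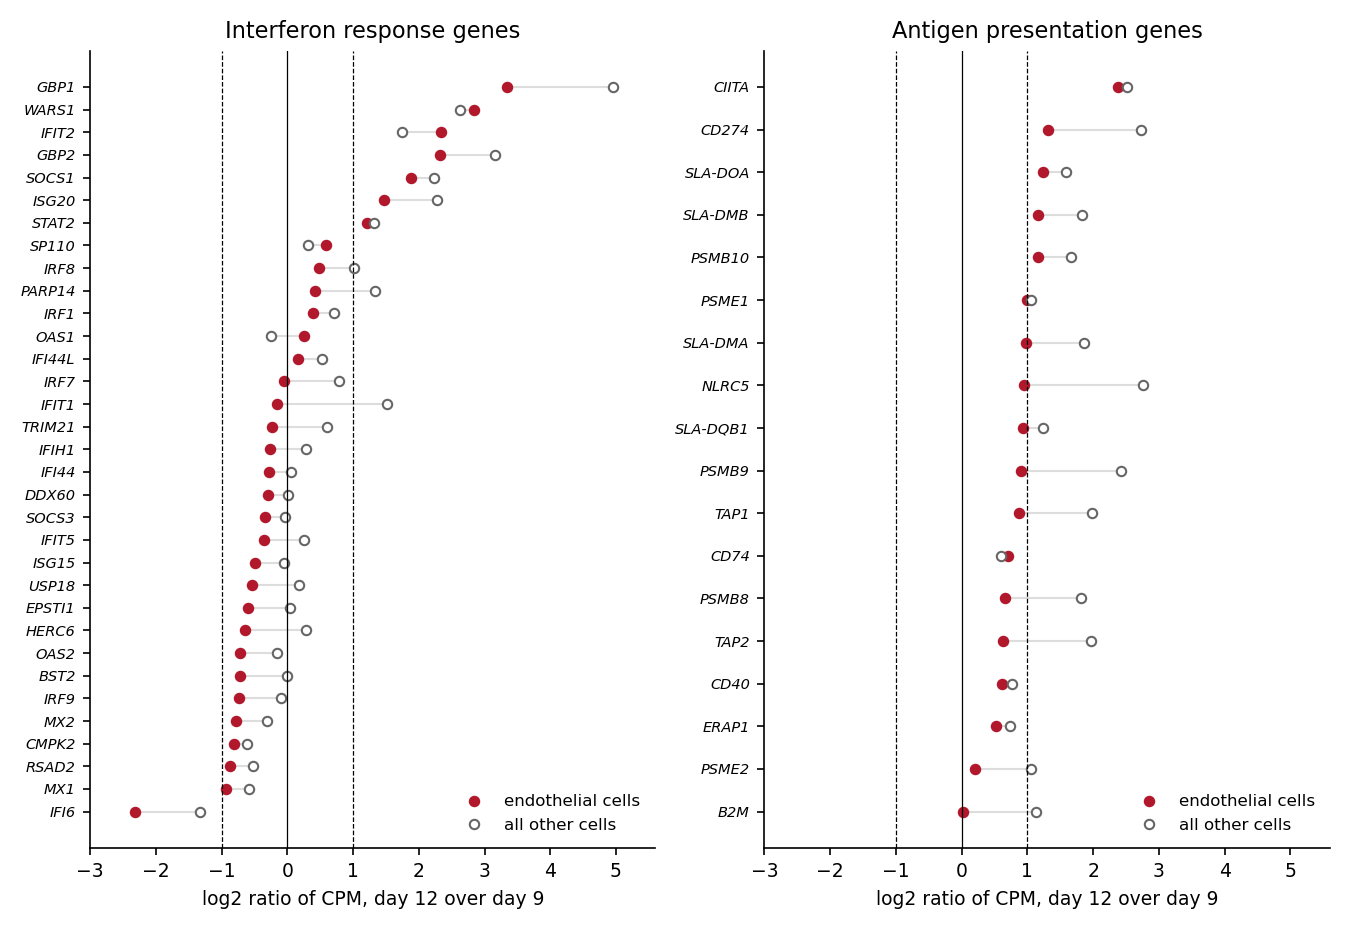
Log2 ratio of CPM, day 12 over day 9, of 33 of the 34 interferon response genes and of 18 antigen presentation genes, in endothelial cells (filled) and in all other cells (open), each from 1 library per day. Broken lines mark a 2-fold difference. GBP1, WARS1, IFIT2 and GBP2 lie at the top and IFI6 at the bottom. All 18 antigen presentation genes lie at or right of 0 in endothelial cells. Without the 6 clusters, which is not drawn, B2M and PSME2 were just left of 0, PSME2 at near equal levels on both days.

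Most antigen presentation genes were higher on day 12. All 18 genes past the filter had a ratio above 1, and 5 of the 18 passed 2-fold (against 2.91% of all features), with a median log2 ratio of 0.92 in endothelial cells and 1.73 in all other cells. CIITA, the switch of MHC class II transcription, was at 123 CPM on day 12 and at 23.7 CPM on day 9, against 32.3 and 5.63 CPM in all other cells. It was 5.19-fold higher (3.55 to 7.88) on day 12 in endothelial cells. The others past 2-fold were CD274, SLA-DOA, SLA-DMB and PSMB10. SLA-DMB, which loads class II molecules with peptide, was at 499 CPM on day 12 and at 222 CPM on day 9. CD274, the ligand of the inhibitory receptor PD-1, was at 41.8 CPM on day 12 and at 16.9 CPM on day 9. PSMB10, a subunit of the immunoproteasome, was at 249 CPM on day 12 and at 112 CPM on day 9. Short of 2-fold, the invariant chain CD74 was at 14772 CPM on day 12 and at 9097 CPM on day 9 in endothelial cells, against 6379 and 4218 CPM in all other cells. The endothelial level was higher than that of the rest on both days. B2M, the light chain of class I molecules, was at 25809 CPM on day 12 and at 25519.8 CPM on day 9 in endothelial cells, against 14689 and 6720.1 CPM in all other cells. Its ratio of 1.01 (0.999 to 1.02) turned to 0.941 (0.927 to 0.956) without the 6 clusters. The proteasome activator PSME2 was at near equal levels without them, 411 and 419 CPM on days 12 and 9. There 16 of the 18 genes had a ratio above 1 and 6 passed 2-fold higher.

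Of 15 chemokine and cytokine genes past the filter, 6 were at least 2-fold higher and 4 at least 2-fold lower on day 12 (against 2.91% and 4.08% of all features), with a median log2 ratio of 0.50, against 1.11 in all other cells. The 3 ligands of CXCR3, the receptor of activated T cells, were among the 6. CXCL10 was at 2627 CPM on day 12 and at 226 CPM on day 9 in endothelial cells, against 2323 and 166 CPM in all other cells. It was 11.6-fold higher (10.3 to 13.2) on day 12 in endothelial cells. CXCL11 had 169 and 1 UMIs on days 12 and 9, a ratio with a wide counting interval (8.32 to 1868). CXCL9 was at 30.8 CPM on day 12 and at 11.8 CPM on day 9. Cluster 3 of day 12 held CXCL10 at 7699 CPM and the tip-like clusters at 659 and 912 CPM. IL15, a survival factor of NK and memory T cells, was at 129.7 CPM on day 12 and at 63.4 CPM on day 9, against 19.95 and 3.34 CPM in all other cells. CCL8 was at 149.7 CPM on day 12 and at 70.1 CPM on day 9 over all endothelial cells and at 42.9 and 14.2 CPM without the 6 clusters.

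Lower on day 12 were CXCL12, CCL14, CXCL8 and IL6. CXCL12, the ligand of CXCR4, was at 54.99 CPM on day 12 and at 159.7 CPM on day 9 in endothelial cells, against 23.7 and 9.80 CPM in all other cells. It was 2.90-fold lower (2.38 to 3.53) on day 12 in endothelial cells. CCL14 was at 169 CPM on day 12 and at 412 CPM on day 9, and CXCL8, a neutrophil chemokine, at 9.87 and 38.02 CPM. CXCL8 was at 5.51 and 17.03 CPM without the 6 clusters, below the filter, and 2 of 13 genes of the list were at least 2-fold lower. IL6 was at 22.8 CPM on day 12 and at 55.8 CPM on day 9 over all endothelial cells, but at 19.6 and 19.9 CPM without the 6 clusters, a ratio of 0.986 (0.547 to 1.90). CXCL2, another neutrophil chemokine, stayed short of 2-fold at 3271 CPM on day 12 and at 5367 CPM on day 9, a ratio of 0.610 (0.592 to 0.628).

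Of 11 leukocyte adhesion and traffic genes past the filter, 1 was at least 2-fold higher and 0 at least 2-fold lower on day 12 (against 2.91% and 4.08% of all features). Their median log2 ratio was 0.47, against 0.62 in all other cells. The higher gene was ACKR3, a chemokine scavenger, at 40.7 CPM on day 12 and at 18.6 CPM on day 9. ICAM1, which arrests leukocytes on the vessel wall, was at 305 CPM on day 12 and at 286 CPM on day 9, a ratio of 1.07 (0.946 to 1.21). ACKR1 was at 136 CPM on day 12 and at 121 CPM on day 9, a ratio of 1.13 (0.936 to 1.36). Both intervals include 1. VCAM1, a ligand of lymphocyte integrins, was at 159 CPM on day 12 and at 115 CPM on day 9 over all cells and at 168 and 76.7 CPM without the 6 clusters, a ratio of 2.19 (1.66 to 2.96) that passed 2-fold. JAM2, a junctional adhesion molecule, was at 325 CPM on day 12 and at 221 CPM on day 9, against 23.96 and 12.9 CPM in all other cells. P-selectin (SELP) was near 0, at 1.65 and 0.845 CPM on days 12 and 9.

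Genes that mark kinds of vessel were compared over all endothelial cells. Of 10 arterial genes past the filter, 1 was at least 2-fold higher and 1 at least 2-fold lower on day 12 (against 2.91% and 4.08% of all features), with a median log2 ratio of 0.46, against -0.26 in all other cells. The higher gene was EFNB2, the ephrin that marks arteries, at 58.5 CPM on day 12 and at 27.04 CPM on day 9, and the lower one CXCL12. DLL4, a Notch ligand of arteries and tip cells, was at 137 CPM on day 12 and at 93.8 CPM on day 9, and JAG1, another Notch ligand, at 165 and 112 CPM. Without the 6 clusters, 4 of 9 arterial genes were at least 2-fold higher (against 3.46% of all features): EFNB2, HEY1, SEMA3G and GJA4. That setting left out the pericyte-led cluster 1 of day 9, where 11 of 15 detected arterial genes had their highest level of that day, and it kept cluster 3 of day 12. HEY1 was at 63.7 CPM on day 12 and at 36.3 CPM on day 9 over all cells and at 65.2 and 26.97 CPM without those clusters. GJA4, a connexin shared with pericytes, turned its direction, at 63.5 and 97.2 CPM over all cells and at 55.1 and 25.6 CPM without them. SEMA3G was at 64.4 CPM on day 12 and at 38.9 CPM on day 9 over all cells and at 67.4 and 28.4 CPM without them. Cluster 1 of day 9 held HEY1 at 52.2 CPM and GJA4 at 220.1 CPM. GJA5, below the filter, was at 23.5 CPM on day 12 and at 6.76 CPM on day 9.

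Of 9 venous genes past the filter, 0 were at least 2-fold higher and 3 were at least 2-fold lower on day 12 (against 2.91% and 4.08% of all features). Without the 6 clusters 1 of 8 was higher and 2 were lower. Their median log2 ratio was -0.39 over all cells and 0.09 without the 6 clusters. The chaperone clusterin (CLU) was at 28.9 CPM on day 12 and at 133 CPM on day 9, the peptide-processing enzyme CPE at 39.95 and 107 CPM, and CCL14 is given above. CPE was at 11.6 and 26.97 CPM without the 6 clusters, below the filter. NR2F2, the transcription factor of venous identity, was at 125 CPM on day 12 and at 163 CPM on day 9 over all cells and at 72.6 and 68.1 CPM without those clusters. PLAT, the tissue plasminogen activator, was at 348 CPM on day 12 and at 479.9 CPM on day 9. Of 7 capillary genes past the filter, 0 were at least 2-fold higher and 2 at least 2-fold lower, MFSD2A and GPIHBP1, with a median log2 ratio of -0.65. GPIHBP1, which holds lipoprotein lipase on capillaries, was at 49.6 CPM on day 12 and at 112 CPM on day 9. RGCC, a cell cycle regulator, was at 1123 CPM on day 12 and at 719.8 CPM on day 9. CA4, CD36 and FABP4, markers of capillaries in several human and mouse organs, were all under 4 CPM on both days.

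Of 20 tip cell and sprouting genes past the filter, 4 were at least 2-fold higher and 2 at least 2-fold lower on day 12 (against 2.91% and 4.08% of all features), with a median log2 ratio of 0.21, against 0.60 in all other cells. Without the 6 clusters, 5 of 19 were at least 2-fold higher and 2 lower. COL4A1, a chain of basement membrane collagen, was at 1296 CPM on day 12 and at 499 CPM on day 9 in endothelial cells, against 959.9 and 319.7 CPM in all other cells. Its partner chain COL4A2 was at 421 CPM on day 12 and at 190.1 CPM on day 9. RAMP3, which pairs with the adrenomedullin receptor, was at 45.6 CPM on day 12 and at 16.1 CPM on day 9, with a ratio of 2.84 (1.77 to 4.82) over all cells and 8.63 (3.31 to 32.1) without the 6 clusters. PXDN, a peroxidase that crosslinks collagen IV, was at 81.8 CPM on day 12 and at 39.7 CPM on day 9, and its ratio was 1.83 (1.25 to 2.76) without those clusters. ANGPT2, which loosens vessels for sprouting, was lower, at 16.9 CPM on day 12 and at 49.8 CPM on day 9. APLN, the apelin peptide, was lower as well, at 12.7 CPM on day 12 and at 37.2 CPM on day 9. ESM1 was at 113 CPM on day 12 and at 79.4 CPM on day 9, a ratio of 1.42 (1.14 to 1.79).

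In VEGF, angiopoietin, adrenomedullin and apelin signalling, 15 genes passed the filter. VEGFC and RAMP3 were at least 2-fold higher and ANGPT2 and APLN at least 2-fold lower on day 12 (against 2.91% and 4.08% of all features). The median log2 ratio was 0.28, against 0.68 in all other cells. VEGFC, a growth factor for lymphatic and blood endothelium, was at 245 CPM on day 12 and at 119.97 CPM on day 9, against 15.5 and 5.63 CPM in all other cells. Its ratio was 2.04 (1.71 to 2.45) over all cells and 1.71 (1.40 to 2.11) without the 6 clusters. The VEGF receptor FLT1 was at 120.3 CPM on day 12 and at 87.9 CPM on day 9, and the co-receptor NRP1 at 136 and 196 CPM. CALCRL, the receptor of adrenomedullin, was at 122 CPM on day 12 and at 156 CPM on day 9, and its ligand ADM at 98.2 and 113 CPM. S1PR1, a sphingosine phosphate receptor that tightens the vessel wall, was at 264 CPM on day 12 and at 165 CPM on day 9. None of these 5 passed 2-fold.

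Of 20 Notch and BMP signalling genes past the filter, 1 was at least 2-fold higher and 1 at least 2-fold lower on day 12 (against 2.91% and 4.08% of all features). A ratio above 1 was found for 15 of the 20. Without the 6 clusters, 2 of 16 were at least 2-fold higher and 0 lower. The median log2 ratio was 0.36, against -0.38 in all other cells. LFNG, the glycosyltransferase that tunes Notch receptors, was at 61.6 CPM on day 12 and at 17.7 CPM on day 9, against 22.9 and 17.1 CPM in all other cells. ID1, a target of BMP signals, was at 649 CPM on day 12 and at 481 CPM on day 9 in endothelial cells, against 420.5 and 778 CPM in all other cells. ID2 was at 469 CPM on day 12 and at 253 CPM on day 9, against 317 and 506 CPM in all other cells, and ID3 at 776 and 561 CPM, against 252 and 478 CPM. For these 3 targets the endothelial level was higher and that of all other cells lower on day 12, and the difference was not tested. NOTCH3, the Notch receptor of pericytes, was at 10.8 CPM on day 12 and at 61.7 CPM on day 9 over all endothelial cells. Without the 6 clusters it was at 5.21 and 4.26 CPM, both below the filter of 20 CPM, so no difference is called there.

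Of 27 basement membrane and matrix genes past the filter, 5 were at least 2-fold higher and 3 at least 2-fold lower on day 12 (against 2.91% and 4.08% of all features), with a median log2 ratio of 0.10. Beside COL4A1 and COL4A2, MMRN2, an endothelial matrix protein, was at 262 CPM on day 12 and at 115 CPM on day 9, against 6.84 and 2.25 CPM in all other cells. Fibronectin (FN1) was at 139 CPM on day 12 and at 50.7 CPM on day 9. MGP, an inhibitor of calcification, was at 90.2 CPM on day 12 and at 23.7 CPM on day 9 over all cells and at 39.5 and 26.97 CPM without the 6 clusters. SPARCL1, a matrix-binding glycoprotein, was lower, at 679 CPM on day 12 and at 1364 CPM on day 9. The proteoglycan BGN was at 26.8 CPM on day 12 and at 92.1 CPM on day 9, and COL4A5, another collagen IV chain, at 8.93 and 33.8 CPM. BGN was at 11.03 and 26.97 CPM and COL4A5 at 4.29 and 12.8 CPM without the 6 clusters, both below the filter, and 6 of 23 matrix genes were at least 2-fold higher and 1 lower. COL15A1, a collagen of vessel basement membranes, was at 259 CPM on day 12 and at 294 CPM on day 9 in endothelial cells, against 34.7 and 334 CPM in all other cells. Of 7 integrins past the filter, 0 passed 2-fold in either direction, with a median log2 ratio of 0.23.

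None of 17 junction genes and none of 10 caveolae and transcytosis genes passed 2-fold, where 2.91% of all features were higher and 4.08% lower. Their median log2 ratios were 0.02 and -0.11, against -0.37 and 0.38 in all other cells. Without the 6 clusters, 1 of 10 caveolae and transcytosis genes was at least 2-fold lower on day 12 (against 4.54% of all features). CDH13, a cadherin without an intracellular tail, was at 199 CPM on day 12 and at 109.8 CPM on day 9, and at 211 and 105 CPM without the 6 clusters. There 2 of 17 junction genes passed 2-fold higher (against 3.46% of all features). GJA1, the connexin 43 gene, was at 218 CPM on day 12 and at 258 CPM on day 9. CAVIN2 was at 553 CPM on day 12 and at 485 CPM on day 9, and the caveolin CAV2 at 321 and 487 CPM. SCARB1, a lipoprotein receptor, was at 345 CPM on day 12 and at 179.96 CPM on day 9, against 18.96 and 12.98 CPM in all other cells. FCGRT, which carries antibodies across cells, was at 628 CPM on day 12 and at 656 CPM on day 9.

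Of 14 genes of flow response and vascular tone, 1 passed 2-fold in each direction. Of all features, 2.91% were higher and 4.08% lower past 2-fold. The median log2 ratio of the 14 genes was 0.19. EDN1, which encodes the vasoconstrictor endothelin 1, was at 178 CPM on day 12 and at 61.7 CPM on day 9, against 6.98 and 2.97 CPM in all other cells. It was 2.89-fold higher (2.27 to 3.72) on day 12 in endothelial cells. EDNRB, an endothelin receptor, was at 33.4 CPM on day 12 and at 97.2 CPM on day 9 over all cells and at 23.6 and 31.2 CPM without the 6 clusters, a ratio of 0.755 (0.465 to 1.27) short of 2-fold. KLF2, a transcription factor induced by flow, was at 843 CPM on day 12 and at 551 CPM on day 9, and its relative KLF4 at 467 and 441 CPM. Of 12 coagulation genes, 2 were at least 2-fold higher, MMRN2 among them, and 0 lower (against 2.91% and 4.08% of all features). Without the 6 clusters, 1 of 9 was at least 2-fold higher and 0 lower.

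Few metabolic genes passed 2-fold, where 2.91% of all features were higher and 4.08% lower. Of 14 glycolysis genes, 0 were at least 2-fold higher and 1 was at least 2-fold lower, the lactate carrier SLC16A1, at 15.98 CPM on day 12 and at 35.5 CPM on day 9. Of 14 hypoxia genes, 0 passed 2-fold, and EPAS1, the hypoxia-inducible factor of endothelium, was at 841 CPM on day 12 and at 735 CPM on day 9. Their median log2 ratios were -0.01 and 0.19. Of 11 lipid genes, 0 were higher and MFSD2A and GPIHBP1 lower past 2-fold, with a median of -0.45. Of 17 early genes that tissue digestion can induce, 0 passed 2-fold, with a median of 0.11. FOS, the best known of them, was at 5156 CPM on day 12 and at 4022 CPM on day 9.

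Some endothelial cells carried mitosis genes on day 12. Of 12 cell cycle genes past the filter, 1 was at least 2-fold higher and 1 at least 2-fold lower (against 2.91% and 4.08% of all features). Their median log2 ratio was -0.15. Without the 6 clusters, 2 of 13 were at least 2-fold higher and 2 lower. UBE2C, which marks cyclins for destruction in mitosis, had 255 and 3 UMIs on days 12 and 9, or 59.9 and 2.53 CPM. CCND2, a cyclin of the G1 phase, was lower, at 13.6 CPM on day 12 and at 34.6 CPM on day 9 over all cells and at 6.12 and 28.4 CPM without the 6 clusters. NUSAP1, a spindle protein, was at 66.5 CPM on day 12 and at 9.29 CPM on day 9 in endothelial cells, against 27.2 and 19.6 CPM in all other cells. With cells thinned to 1000 UMIs, 26 of 783 endothelial cells on day 12 (3.32%, 2.18 to 4.83%) and 1 of 164 on day 9 (0.610%, 0.0154 to 3.35%) had 2 or more UMIs of 14 mitosis genes, against 1.22% and 0.435% of all other cells. The endothelial intervals of both days overlap. Without thinning the shares of endothelial cells were 9.32% and 6.098%. Of the 26 cells, 21 lay in cluster 3, where arterial and mitosis genes were both high.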

How the data were processed

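Each endometrial library was read from its deposited matrix of UMI counts, 1 file per sample; the counts were made by the authors with Cell Ranger 6.1.2, with the Sscrofa11.1 build, per the submitters' processing notes. Deposited barcodes numbered 11757 on day 12 and 9483 on day 9. Kept cells had at least 1000 UMIs, at least 500 genes and at most 20% UMIs of 13 mitochondrial genes. No doublet caller was run. Of 21280 features, 14811 had a symbol in the files and 688 took theirs from the reference gene table. KRT19, part of the epithelial limit, was not used here, which left 5 genes. Counts were summed over cells into CPM. Ratios of day 12 over day 9 have exact conditional binomial intervals and shares Clopper-Pearson intervals, both at 95%. The interval of the difference in shares joins the Clopper-Pearson limits of both days by the root of summed squares, and is approximate. A difference was called at 2-fold or more, with a mean of both days of 20 CPM or more, and no p-value was computed with 1 library per group. A gene with 0 UMIs would enter a ratio at the floor of 3 counts. Shares of cells were compared with every cell thinned to 1000 UMIs (seed 0). Clusters were made per library by the Leiden method (1000 variable genes, 20 components, 15 neighbours, resolution 0.6) in scanpy 1.11.5, with Python 3.11.15, numpy 2.4.6, scipy 1.17.1 and pandas 2.3.3.

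The members, the 34 gene lists (639 genes, 569 matched) and the rules were chosen with earlier results of these data known. Named genes were the 12 highest and 12 lowest day ratios with a level at least 2-fold that of all other cells, the 5 highest and 5 lowest without that condition, the 15 with the largest excess over other cells, up to 6 of the highest level in each list and all arterial, venous, capillary, tip and lymphatic genes. The text gives part of these, and it adds list members, chiefly those past 2-fold, that were chosen after their values were seen. Leaving out the clusters led by other-class markers, and PLVAP from the rule, was also chosen after seeing the data. The ratio and interval code was checked on simulated data. Some genes are not reported here.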

Additional observations from a re-analysis of the deposited data

Results flagged for a closer look

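CXCL12 and IL6 passed 2-fold in opposite directions in endothelial cells and in all other cells of the same 2 libraries, and the difference was not tested, since each value comes from 1 library per day. CXCL12 had a log2 ratio of day 12 over day 9 of -1.54 in endothelial cells and 1.27 in all other cells. Its endothelial levels were 54.99 and 159.7 CPM on days 12 and 9, and its ratio without the 6 clusters led by other-class markers was 0.360 (0.281 to 0.462). Cluster 3 of day 12 held CXCL12 at 265 CPM, above every cluster of day 9. IL6 had a log2 ratio of -1.29 in endothelial cells and 1.38 in all other cells. Its endothelial levels were 22.8 and 55.8 CPM, and its ratio without those clusters was 0.986 (0.547 to 1.90), so that the endothelial value rests on them.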

How the results depend on the processing

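The difference in the share of endothelial cells, 6.68 percentage points, was 5.597 with at least 10 marker UMIs, 8.22 with at least 2000 UMIs per cell, 5.72 without cells high in other-class genes, 5.50 without the clusters led by other-class markers and 5.85 without PLVAP in the rule. The counts followed the filter on low levels, which sets how many features are counted: 441 features were at least 2-fold higher and 697 at least 2-fold lower on day 12 with a mean of 5 CPM, 86 and 77 with 50 CPM, and 775 and 1738 with no filter beyond 1 count. The features at least 2-fold above all other cells on both days numbered 425 at 50 CPM and 1022 with no filter. Under the other settings 150 to 195 were higher and 205 to 273 lower. Scaling by the median of ratios, a factor of -0.03 on the log2 scale, gave 173 higher and 205 lower, and the mean of each cell's CPM gave 195 and 273. Of 64 named genes past 2-fold, 63 kept their direction under 13 alternatives and 46 stayed past 2-fold. NOTCH3 did not: its ratio was 1.22 without the clusters led by other-class markers and 0.175 with them, and the cause was not tested. Its levels without them were below the filter of 20 CPM on both days, so no reversal is called. No paired analysis was possible because each group is 1 library, and no replicate could be left out. The search for promoter motifs was not run. Depth limits the day 9 side, with 164 cells and 1183629 UMIs.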

Other observations

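Genes of hormone response, growth factor binding and oxidative stress are given here by their counts and levels. Of 18 steroid and retinoid response genes past the filter, 2 were at least 2-fold higher and 3 at least 2-fold lower on day 12 (against 2.91% and 4.08% of all features). Their median log2 ratio was -0.08. FKBP5, a chaperone partner induced by progesterone and glucocorticoid receptors, was at 158 CPM on day 12 and at 65.1 CPM on day 9. RBP4, the retinol carrier, was at 106 CPM on day 12 and at 24.5 CPM on day 9 in endothelial cells (113 and 14.2 CPM without the 6 clusters led by other-class markers) and at 788 and 100.1 CPM in all other cells, and thus lower in endothelium than in the rest on both days. The oestrogen receptor ESR1 was at 12.2 CPM on day 12 and at 38.02 CPM on day 9 with all endothelial cells and at 4.29 and 7.10 CPM without those clusters, against 73.5 and 138 CPM in all other cells. FKBP4 and RARRES1 were the other genes lower past 2-fold, the chaperone partner FKBP4 at 42.8 CPM on day 12 and at 93.8 CPM on day 9. The progesterone receptor PGR was near 0 in endothelial cells, at 4.47 and 1.69 CPM, against 24.6 and 16.96 CPM in all other cells.

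Of 8 insulin-like growth factor and stanniocalcin genes, 2 were at least 2-fold higher on day 12 and 0 lower (against 2.91% and 4.08% of all features). Their median log2 ratio was 0.57, against 0.86 in all other cells. IGFBP2, a binding protein of these growth factors, was at 108 CPM on day 12 and at 35.5 CPM on day 9, against 436 and 35.6 CPM in all other cells. IGFBP4, of the same family, was at 65.8 CPM on day 12 and at 29.6 CPM on day 9, against 51.3 and 28.6 CPM in all other cells. Of 11 metallothionein and oxidative stress genes, 1 was at least 2-fold higher and 1 at least 2-fold lower (against 2.91% and 4.08% of all features). These were SOD3, the extracellular superoxide dismutase (52.2 and 8.45 CPM on days 12 and 9), and the metallothionein MT1A (75.7 and 168 CPM). The median log2 ratio of the 11 genes was -0.43, against 0.11 in all other cells.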
